A study of Mus musculus with 42 samples.

Results

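The genes described here encode the proteins of the spliceosome and the SR proteins of mouse preimplantation embryos. They were chosen by symbol alone: the Sm and snRNP protein genes (Snrp and Snrnp), the SF3A and SF3B subunits (Sf3a and Sf3b), the SR proteins (Srsf), the pre-mRNA processing factors (Prpf), the U2 auxiliary factors (U2af) and the Sm-like proteins (Lsm), with Srsf, Prpf and Lsm genes taken only where a number follows. The rule found 62 of the 18193 genes on the arrays. Of these, 61 were among the 15478 genes bright enough to be tested, and Srsf12, whose intensity stayed between 1.8 and 15.54 on all 42 arrays, was not.

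The spliceosome removes introns from pre-mRNA. It is built anew on each intron from small nuclear ribonucleoproteins (snRNPs), each a short RNA wrapped in a ring of Sm or Sm-like proteins with further proteins of its own. U1 marks the 5′ splice site, the U2 auxiliary factor and the U2 snRNP mark the 3′ end and the branch point, and the U4/U6.U5 tri-snRNP brings in the catalytic parts. SR proteins bind exons and help to choose splice sites. Before implantation the mouse embryo passes from mRNA stored in the egg to transcripts of its own genome, which have to be spliced.

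Embryos of the strain B6D2F1 received a morpholino as fertilized 1-cell embryos and were collected 20 h or 44 h later. A morpholino is an antisense oligomer that stops its target mRNA from being translated or spliced. The sources used here do not say which of these each oligomer does, or how many embryos went into an array. The Oct4 experiment at 20 h held embryos given the Oct4 (gene Pou5f1) morpholino and uninjected embryos. The Sall4 experiment at 20 h held embryos given the Sall4 morpholino and uninjected embryos of its own. At 44 h the Oct4 morpholino, the Sall4 morpholino, a control morpholino without a match in the mouse genome, and no injection were set side by side. The Nanog experiment held the Nanog morpholino, the control morpholino and no injection at both times. Each of these 14 groups had 3 arrays, numbered as biological replicates. All embryos, injected or not, were kept in Human Tubal Fluid with serum supplement, and their RNA was amplified before labelling. Whole embryos were measured, so fewer cells of a type and less RNA per cell cannot be told apart.

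Values are the deposited intensities of Affymetrix probe sets, tested as log2(intensity + 16) in 1 limma model over all 42 arrays. A gene was called changed at a Benjamini-Hochberg adjusted p under 0.05 over all 15478 genes. The 18 arrays of the Nanog experiment had medians of 193.05 to 227.34 and the other 24 arrays medians of 26.13 to 33.33, so levels of the Nanog experiment were not set against those of the others. The change over time in the Oct4 and Sall4 experiments has to cross experiments, since their 20 h and 44 h embryos belong to separate ones. Of 8 embryo and oocyte genes measured, Pou5f1 and Dppa3 were bright on every array, at 1384 or more and at 7105 or more. The others were not: their lowest values over the arrays ran from 21.0 (Usp17la) to 324 (Bmp15). Of the targets at 44 h, Pou5f1 mRNA averaged 2218 ± 260 with the Oct4 morpholino and 3925 ± 456 with the control morpholino (SD, n = 3 each). Sall4 mRNA averaged 3662 ± 462 after Sall4 knockdown, against 3169 ± 385 with the control morpholino, and Nanog mRNA 2687 ± 1129 with the Nanog morpholino and 3828 ± 110 with its control (SD, n = 3 each). Pou5f1 mRNA was lower than the control at 44 h with all 3 morpholinos, by 0.82 (Oct4), 0.88 (Sall4) and 0.70 (Nanog) on the log2 scale (adjusted p = 0.00323, 0.00455 and 0.0236), and Sall4 mRNA was lower with the Oct4 morpholino (-0.99, adjusted p = 0.000725). A morpholino need not lower its target mRNA, so these values do not check the knockdown.

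Promoter sequences are shown for 4 members that the results turn on: Snrpf, the member with the largest change relative to its error with the Oct4 morpholino at 44 h; Srsf5, lower with both the Oct4 and the Sall4 morpholino at 44 h; Snrpb2, the member that rose with the Oct4 morpholino at 20 h; and Lsm14b, which fell most over time in the uninjected embryos of the Oct4 and Sall4 experiments. Each is the 150 bases before the annotated start of transcription, 5′ to 3′ on the strand of the gene, from RefSeq on the build GRCm38.p6. Snrpf lies at chr10:93589659-93589808 on the minus strand, Srsf5 at chr12:80945349-80945498, Snrpb2 at chr2:143062919-143063068 and Lsm14b at chr2:180024837-180024986, these 3 on the plus strand. Capitals mark matches, on either strand, to CCAAT, to the GC box GGGCGG and to the ETS core CCGGAAG.
Snrpf: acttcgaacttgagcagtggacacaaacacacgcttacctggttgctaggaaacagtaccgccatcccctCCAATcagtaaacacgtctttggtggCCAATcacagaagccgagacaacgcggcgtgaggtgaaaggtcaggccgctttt
Srsf5: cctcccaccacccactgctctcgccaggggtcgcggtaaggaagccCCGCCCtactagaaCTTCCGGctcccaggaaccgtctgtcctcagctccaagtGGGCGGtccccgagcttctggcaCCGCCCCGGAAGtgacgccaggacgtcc
Snrpb2: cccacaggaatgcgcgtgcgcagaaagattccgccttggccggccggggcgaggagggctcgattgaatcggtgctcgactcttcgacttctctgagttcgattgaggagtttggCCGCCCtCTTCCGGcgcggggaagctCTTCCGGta
Lsm14b: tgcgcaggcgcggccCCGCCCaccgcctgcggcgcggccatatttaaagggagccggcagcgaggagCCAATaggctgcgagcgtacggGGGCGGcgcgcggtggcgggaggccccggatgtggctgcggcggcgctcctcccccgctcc
The Snrpf window held a pair of CCAAT boxes and neither other motif, while the Srsf5 and Snrpb2 windows held ETS cores and GC boxes. In Srsf5 a GC box and an ETS core overlap near the start.

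Across the 250 bases before the start, promoter sequences were found for 53 members and for 27025 genes in all. The ETS core was present in 17 of the 53 members (32.1%), against 7.83% of all genes and 13.1% of the 12417 tested genes with a sequence. The GC box was present in 34 members (64.2%), against 35.4% of all genes and 57.3% of tested genes, and CCAAT in 20 (37.7%), against 37.5% and 39.7%. The octamer ATGCAAAT, searched on both strands because Oct4 binds octamers, matched in 0 of the 53 members, the 10 that were lower with the Oct4 morpholino at 44 h included, against 1.81% of all genes. A match describes the letters only, and the absence of one says nothing of a factor.

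More members were called over time in culture than with any morpholino. In uninjected embryos of the Nanog experiment 13 members were higher at 44 h than at 20 h and 6 were lower, together 31.1% of the 61. Over all genes the share called was 25.6%, with 9.28% higher and 16.3% lower. Members therefore counted 21.3% higher and 9.84% lower, and their median change was 0.17 on the log2 scale, against 0.02 for all genes. The 44 h arrays lay above all 20 h arrays for 17 of the 61 members (27.9%), against 18.1% of all genes, and below them for 11 members (18%), against 22.9% of all genes. The 19 called members were among these, as were 93.2% of all genes called higher and 94.0% of those called lower.

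Of the 6 Sm genes found and tested, Snrpb, which encodes SmB, changed most. Its intensity was 960, 2529 and 1166 at 44 h, against 353, 234 and 205 at 20 h, a log2 change of 2.39 ± 0.42 (SE, adjusted p = 6.1e-05). All 44 h arrays lay well above all 20 h arrays, and the other 5 Sm genes tested were not called, with changes of 0.06 to 0.69.

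Among the U2 proteins Sf3b3, a subunit of the SF3B complex that holds the branch point, had 7682, 8305 and 6996 at 44 h, against 2316, 3234 and 1668 at 20 h. Its log2 change was 1.71 ± 0.28 (SE, adjusted p = 2.1e-05), and its other probe set gave 1.95. Sf3a3, of the SF3A complex, rose by 0.90, although without replicate 3 of the 20 h group its adjusted p was 0.199, and the call was also lost without replicate 1 of that group (0.0585) and without replicates 1 (0.0532) and 2 (0.0986) of the 44 h group. Snrpb2, the U2 B″ protein, rose by 0.68. U2af1, the U2 auxiliary factor subunit that reads the AG at the 3′ splice site, went the other way: 3434, 3664 and 2407 at 44 h, against 6253, 6528 and 7053 at 20 h (log2 change -1.08 ± 0.20, SE, adjusted p = 0.000103).

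The SR genes split. Srsf3 had 9892, 9934 and 10031 at 44 h, against 5460, 5172 and 2025 at 20 h (1.36 ± 0.30, SE, adjusted p = 0.000841). Srsf6, Srsf9 and Srsf2 also rose, by 0.88, 0.72 and 0.35. Srsf4 fell: its arrays read 2789, 4012 and 4037 at 44 h, against 5272, 6256 and 6158 at 20 h (-0.72 ± 0.15, SE, adjusted p = 0.000648), and Srsf10 fell by 0.42. The Srsf6 call was lost without replicate 1 of the 20 h group (adjusted p = 0.178), and the Srsf10 call without replicate 2 of the 20 h group (0.055) or replicate 3 of the 44 h group (0.0734). The Srsf2 call held without only 1 of the 6 arrays and was lost under 5 of 9 other settings.

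The Sm-like genes split more widely. Lsm4 and Lsm3 belong to both the nuclear ring on U6 and the cytoplasmic ring of mRNA decay. Lsm3 had 6063, 6348 and 5251 at 44 h, against 1936, 2643 and 2628 at 20 h (1.30 ± 0.36, SE, adjusted p = 0.00749). Lsm4 had 2117, 1380 and 1652 at 44 h, against 728, 921 and 423 at 20 h (1.34 ± 0.43, SE, adjusted p = 0.0201); without replicate 3 of the 20 h group the adjusted p was 0.128, and without replicate 1 of the 44 h group 0.0844. Lsm12 rose by 0.56, a call that did not survive leaving out any of the 6 arrays (adjusted p up to 0.112).
The 3 that fell are not part of the splicing ring. Lsm10, a protein of the U7 snRNP that processes histone mRNA, had 439, 110 and 337 at 44 h, against 1098, 1641 and 1633 at 20 h (-2.41 ± 0.64, SE, adjusted p = 0.00521, and 0.0572 without replicate 2 of the 44 h group). Lsm14b, a protein of mRNA storage granules, had 954, 1033 and 2741 at 44 h, against 4999, 6209 and 5417 at 20 h (-1.97 ± 0.34, SE, adjusted p = 5.5e-05). Its relative Lsm14a, a processing-body protein, had 5989, 6086 and 6508 at 44 h, against 9383, 10122 and 9344 at 20 h (-0.63 ± 0.15, SE, adjusted p = 0.00163), and its 2 other probe sets were also lower.

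In the remaining classes Prpf39, a U1 partner, rose by 1.08, and Prpf31, which joins U4/U6 to U5, by 1.19; the Prpf31 call was lost without replicate 3 of the 20 h group (adjusted p = 0.0801). None of the 3 minor spliceosome genes was called. The largest change among them was that of Snrnp35, a U11/U12 protein, at -0.37, with 6476, 6166 and 6051 at 44 h, against 7627, 8110 and 8398 at 20 h. These intensities did not overlap, but the change did not pass the test.

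**Figure D1:**
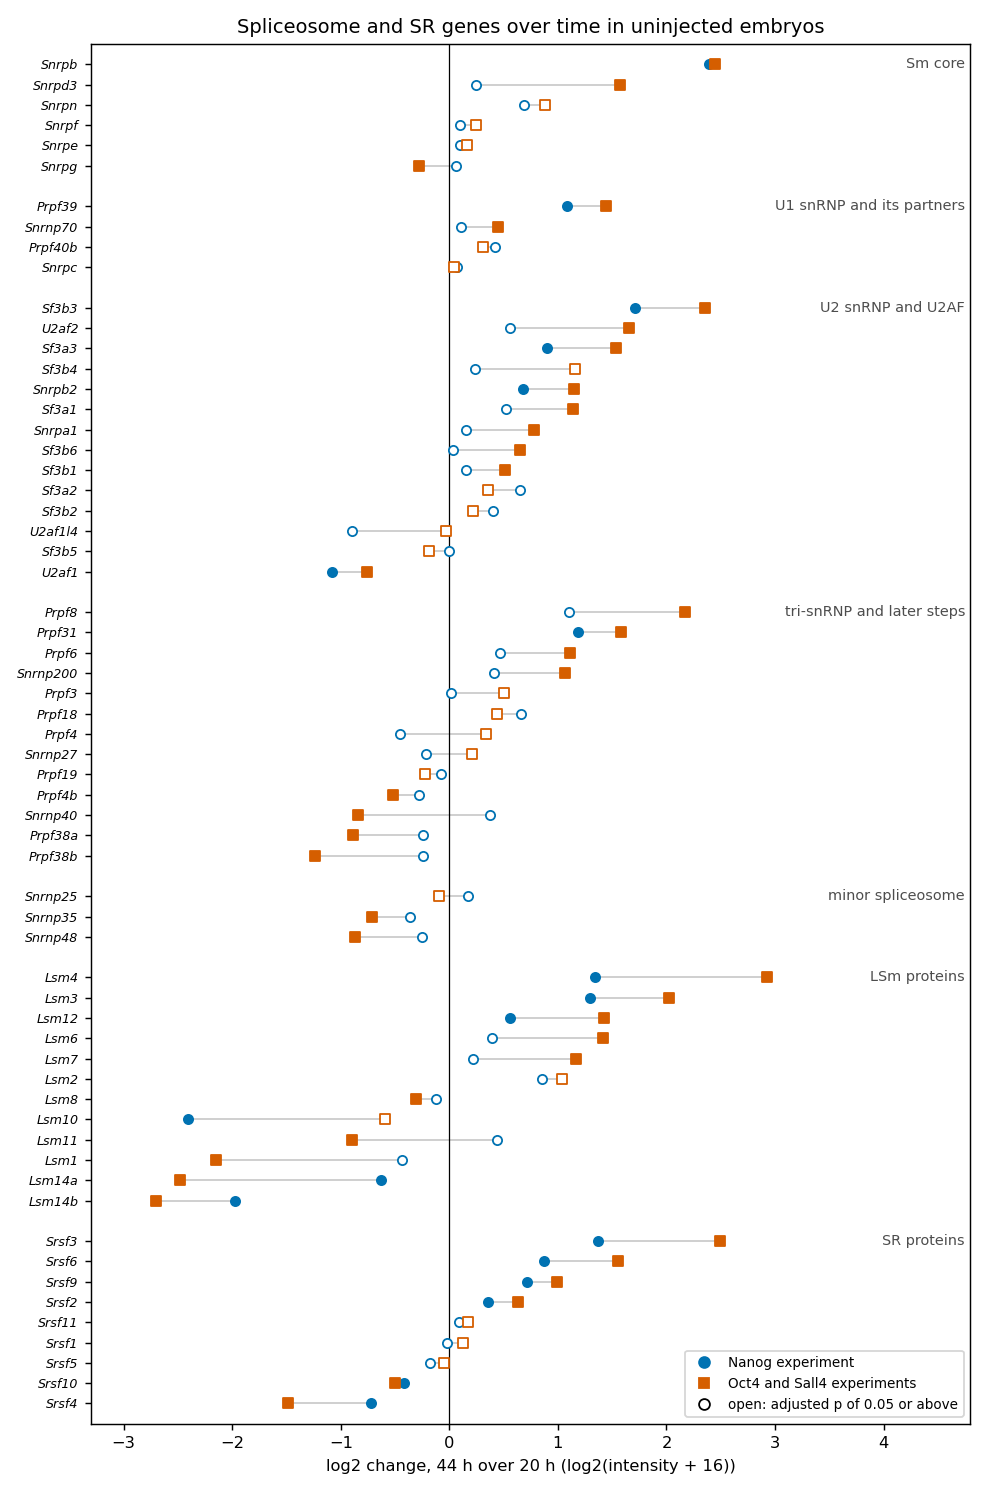
Log2 change of the 61 tested members, 44 h over 20 h, in uninjected embryos of the Nanog experiment (circles) and of the Oct4 and Sall4 experiments (squares), grouped by role; filled symbols passed an adjusted p of 0.05. Lsm4, Snrpb and Srsf3 lie far to the right and Lsm14b far to the left in both sets.

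The other groups of the Nanog experiment gave 7 higher and 6 lower with the control morpholino (all genes called 23.3%, higher 7.17%, lower 16.2%) and 9 higher and 5 lower with the Nanog morpholino (all genes called 19.8%, higher 8.0%, lower 11.8%). Without replicate 3 of the 20 h control-morpholino group the first count was 8 in place of 13. The second count of 14 became 8 without replicate 3 at 20 h and 6 without replicate 3 at 44 h. In all 3 groups 7 members were called: Snrpb, Lsm3, Prpf31 and Srsf2 higher, and Lsm10, Lsm14a and U2af1 lower. The share of all genes called in all 3 groups was not counted. Snrpb rose by 2.10 and Lsm10 fell by 3.36 with the control morpholino, and by 1.67 and 2.21 with the Nanog morpholino. U2af1l4, a paralog of U2af1, fell by 2.05 with the Nanog morpholino, where its adjusted p was 0.00138.

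The Oct4 and Sall4 experiments gave a second view of time from separate arrays, with 3 uninjected 44 h arrays against 6 uninjected 20 h arrays of 2 experiments. Here time and experiment cannot be told apart. With that limit, 25 members were higher and 15 lower at 44 h, 65.6% of the 61, against 45.5% of all genes. The share higher was 41.0%, against 20.4% of all genes, and the share lower 24.6%, against 25% over all genes. The median change was 0.35 for members and -0.06 for all genes.

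The largest rise was that of Lsm4, with 730, 1044 and 1230 at 44 h, against 22.2 to 178 (median 147) at 20 h (2.93 ± 0.37, SE, adjusted p = 1.1e-07). Srsf3 had 2832, 3061 and 3230 at 44 h, against 400 to 804 (median 465) at 20 h (2.50 ± 0.26, SE). Snrpb had 1082, 1130 and 1422 at 44 h, against 141 to 388 (median 175) at 20 h (2.45 ± 0.36, SE). All 3 were also among the members that rose in the Nanog experiment. Sf3b3 had 1817, 2082 and 2129 at 44 h, against 295 to 575 (median 356) at 20 h (2.35 ± 0.24, SE). Prpf8, the scaffold of the catalytic centre, had 1160, 1511 and 1630 at 44 h, against 208 to 449 (median 295) at 20 h (2.17 ± 0.39, SE). In the Nanog experiment Prpf8 changed by 1.11 without passing the test.

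Among the members that fell, Lsm14b had 284, 374 and 407 at 44 h, against 1519 to 3277 (median 2589) at 20 h (-2.71 ± 0.30, SE, adjusted p = 6.8e-09). Lsm14a had 753, 772 and 775 at 44 h, against 3651 to 5045 (median 4321) at 20 h (-2.48 ± 0.13, SE). Lsm1, which sets the decay ring apart from the U6 ring, had 33.8, 73.7 and 82.5 at 44 h, against 136 to 560 (median 347) at 20 h (-2.15 ± 0.50, SE). In none of these did the 44 h arrays reach the 20 h arrays, and Lsm8, which takes the place of Lsm1 in the U6 ring, fell by 0.31. Srsf4 had 742, 821 and 854 at 44 h, against 2107 to 2602 (median 2172) at 20 h (-1.48 ± 0.13, SE), and Prpf38b, a Prp38 family protein, 417, 590 and 676, against 869 to 1962 (median 1253) at 20 h (-1.23 ± 0.18, SE). With the mean of all its probe sets Prpf38b changed by 0.31 (adjusted p = 0.209).

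The other members called higher in this comparison by over 1 on the log2 scale were Lsm3, U2af2, Prpf31, Snrpd3, Srsf6, Sf3a3, Prpf39, Lsm12, Lsm6, Lsm7, Snrpb2, Sf3a1, Prpf6 and Snrnp200, at 1.07 to 2.03. Sf3b4 (1.16, adjusted p = 0.0581) and Lsm2 (1.04, adjusted p = 0.0962) changed by over 1 without passing the test. By class, 8 of 14 U2 genes rose and U2af1 alone of them fell, while 2 of 3 minor spliceosome genes, Snrnp48 and Snrnp35, fell. The 13 tri-snRNP and later genes were divided, with 4 higher and 4 lower. All 13 members called higher in the Nanog experiment were called higher here, which is 100% of that list and 52.0% of the 25. Of the 6 called lower there, 5 were lower here, 83.3% of that list and 33.3% of the 15, and Lsm10 was the exception. Its intensity was only 36.9 to 115 at 44 h, against 28.5 to 334 at 20 h. None was called in opposite directions. The shares of calls found in both comparisons were not counted over all genes, so they describe the members only. Of all genes 45.5% were called in the Oct4 and Sall4 experiments. The changes of the 61 members in both comparisons correlated with a Pearson r of 0.798, against 0.789 over all genes, and 53 of 61 had one sign (86.9%), against 74.7% of all genes. Genes are not independent replicates, so these stand as a description. The median absolute change of members was 0.418 in the Nanog experiment and 0.873 in the Oct4 and Sall4 experiments, against 0.527 and 0.715 for all genes.

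Markers of other cells were read beside these changes. Of 11 granulosa and cumulus genes 10 were measured, with sums of 1083 to 1230 at 44 h and 391 to 1453 at 20 h in uninjected embryos of the Oct4 and Sall4 experiments, and 1609 to 3819 and 2448 to 5093 in the Nanog experiment. Most of each sum came from Amhr2 and Cyp11a1. Amh, Inha, Inhba and Tnfaip6 had medians of 5.12 to 7.85 over all arrays, near the bottom of the scale, and so did Foxl2 at 9.09. Of 11 blood and stroma genes 9 were measured, with sums of 123 to 229 at 44 h and 80.8 to 151 at 20 h in the Oct4 and Sall4 experiments. The part of such cells in the changes over time was not tested.

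With the Oct4 morpholino at 44 h, 10 members were lower than with the control morpholino and 0 were higher. That is 16.4% of the 61, against 11.6% of all genes called, 6.18% lower and 5.38% higher. The median change was -0.18 for members and 0.02 for all genes. The 10 came from 5 of the 7 role classes: 4 SR genes, 2 Sm-like genes, 2 U2 genes, 1 Sm gene and 1 tri-snRNP gene. The 3 Oct4 arrays lay below all control and uninjected arrays for 20 of the 61 members (32.8%), the 10 called ones among them, against 9.85% of all genes and 78.7% of all genes called lower. They lay below the 3 Sall4 arrays as well for 9 members (14.8%), 6 of them called, against 3.8% of all genes and 41.1% of those called lower. Against uninjected embryos 12 members were lower and 2 higher, where 7.21% of all genes were lower and 7.2% higher (14.4% called). These counts take the brightest probe set of each gene. Among members not called by it over the control, 1 of the 2 other probe sets of Prpf38a (1.20 and 1.76) was called higher. For Srsf1, Lsm6, Snrnp48 and Snrpg 1 other probe set each was called lower.

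Snrpf, the SmF protein of the Sm ring, had the largest change relative to its error. It had 1323, 1534 and 1239 with the Oct4 morpholino and 2839, 2389 and 2546 with the Sall4 morpholino, against 2888, 3151 and 3193 with the control and 3562, 2924 and 3007 in uninjected embryos. The Oct4 arrays stood apart from all 9 others, which lay close together. The log2 change over the control was -1.17 ± 0.14 (SE, adjusted p = 5.6e-07), 2.25-fold lower, and the call was kept under each setting tried and without each array. None of the other Sm genes tested was called by its brightest probe set, and Snrpb, at -1.15, had a larger error (adjusted p = 0.0727). The second probe set of Snrpg was called lower (-0.78), while its brightest changed by -0.14.

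Lsm3 fell furthest, by 2.09 ± 0.36 on the log2 scale (SE, adjusted p = 0.000185), 4.24-fold. Its arrays read 125, 745 and 606 with the Oct4 morpholino and 1217, 1275 and 1162 with the Sall4 morpholino, against 2087, 1678 and 1412 with the control and 1600, 1558 and 1476 in uninjected embryos. Replicate 1 of the Oct4 group was far below its fellows, and without it Lsm3 was still called. Lsm7, of the same rings, had 626, 693 and 804 with the Oct4 morpholino, against 1224, 1402 and 1129 with the control (-0.81 ± 0.26, SE, adjusted p = 0.0354). This call is marginal: it was kept without 1 of the 6 arrays only, replicate 3 of the Oct4 group, and its adjusted p reached 0.134 without replicate 2 of the control group and 0.0667 with quantile normalization.

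Of the U2 genes, U2af1l4 had 84.3, 34.0 and 79.2 with the Oct4 morpholino and 186, 164 and 87.7 with the Sall4 morpholino, against 183, 371 and 272 with the control and 210, 380 and 209 in uninjected embryos (-1.84 ± 0.45, SE, adjusted p = 0.00622). Sf3b3 had 705, 1123 and 875 with the Oct4 morpholino, against 1767, 2166 and 2389 with the control (-1.23 ± 0.28, SE, adjusted p = 0.00333). The Oct4 and control arrays of both genes were apart. Prpf8 had 710, 317 and 288 with the Oct4 morpholino and 774, 730 and 527 with the Sall4 morpholino, against 1220, 1674 and 1300 with the control (-1.74 ± 0.44, SE, adjusted p = 0.00847). Without replicate 3 of the Oct4 group its adjusted p was 0.052.

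The SR genes that were lower were Srsf6, Srsf5, Srsf9 and Srsf10, of 9 tested. Srsf5 changed by -1.05 ± 0.17 (SE, adjusted p = 7.6e-05), with 1066, 1423 and 821 with the Oct4 morpholino and 1756, 1184 and 1317 with the Sall4 morpholino, against 2021, 2596 and 2149 with the control. Srsf9 changed by -0.99 ± 0.20 (SE) and Srsf10, whose protein can also repress splicing, by -0.58 ± 0.13 (SE). The Srsf10 call was lost with quantile normalization (adjusted p = 0.0647) and in a fit of that experiment alone (0.0744).
Srsf6 needs its probe sets apart. The brightest had 671, 529 and 656 with the Oct4 morpholino and 1273, 991 and 1109 with the Sall4 morpholino, against 1509, 1557 and 1440 with the control (-1.26 ± 0.26, SE, adjusted p = 0.00108). Its 3 other probe sets changed by -0.01 to -0.84 with the Oct4 morpholino, and with the mean of all 4 the adjusted p was 0.302. With the Sall4 morpholino the order turned round. One of the others had 179, 35.7 and 82.3 with the Sall4 morpholino, against 902, 1183 and 882 with the control, and another 101, 70.1 and 35.6, against 605, 654 and 442. Their log2 changes were -3.32 and -2.84 (adjusted p = 0.000273 and 0.000893 over all probe sets), while the brightest probe set changed by -0.42 (adjusted p = 0.508). The probe sets of Srsf6 thus moved differently under each morpholino, and the sources used here do not say which transcripts each one reads.

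**Figure D2:**
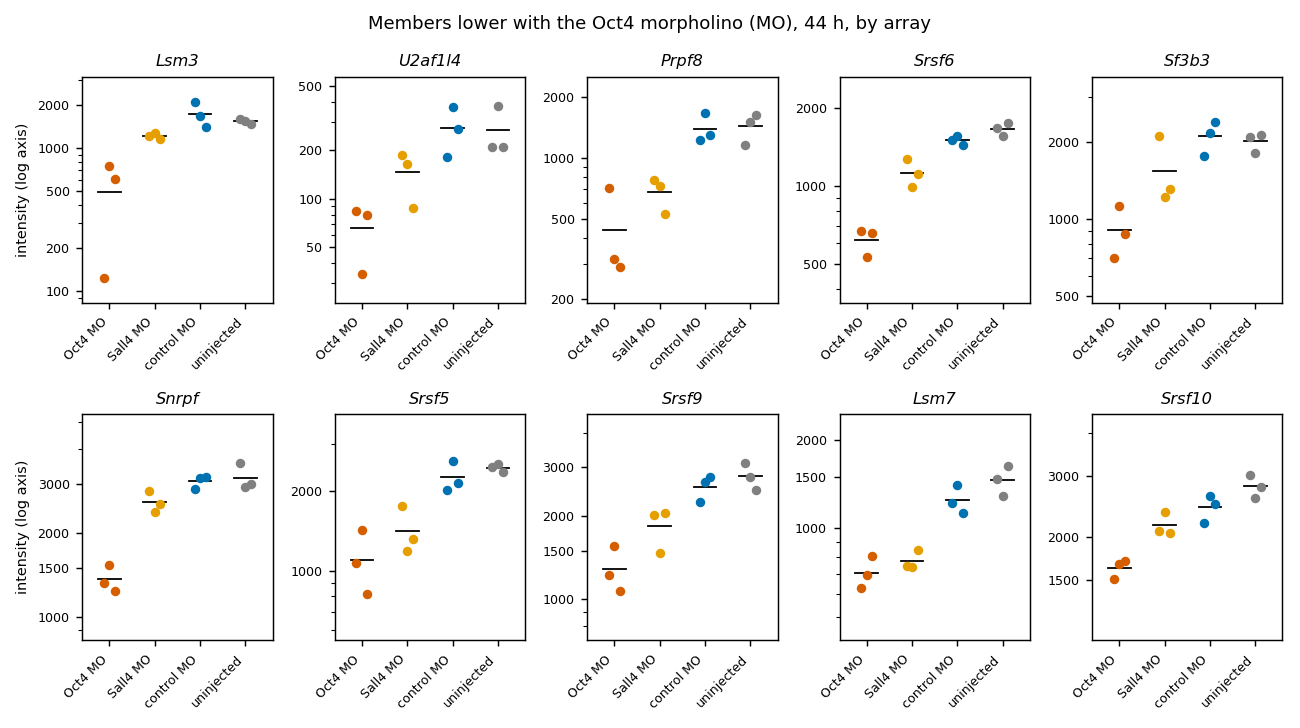
Intensity (log axis) on each array at 44 h for the 10 members lower with the Oct4 morpholino; points are arrays, bars are means of 3, and groups run from the Oct4 and Sall4 morpholinos to the control morpholino and uninjected embryos. In each panel the 3 Oct4 points lie below all control and uninjected points.

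Of these 10 members, 4 (Lsm3, Sf3b3, Srsf6 and Srsf9) were among those higher over time in uninjected embryos of the Nanog experiment, which shares no array with this comparison. Srsf10 was among those lower over time, and the other 5 were not called there. Over all tested members 21.3% were higher over time there, and over all genes 9.28%. The share among all genes lower with the Oct4 morpholino was not counted, so these counts describe the members only. The granulosa and cumulus sum was 1169 to 1640 with the Oct4 morpholino and 1441 to 1925 with the Sall4 morpholino, against 772 to 1133 with the control. Both knockdown groups lay above the control, but the Oct4 sums overlapped those of uninjected embryos, at 1083 to 1230. The sum of 8 measured of 9 embryo and oocyte genes was 13170 to 14207 with the Oct4 morpholino and 12800 to 14912 with the Sall4 morpholino, against 13346 to 14860 with the control, and these overlapped. The part of other cells in the Oct4 and Sall4 results was not tested.

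The 5 members with the smallest changes over the 6 knockdown comparisons were Snrpe and Snrpg, both of the Sm ring, Prpf19, a ubiquitin ligase of the activated spliceosome, Srsf2, and Lsm8. Their largest absolute changes were 0.101, 0.137, 0.142, 0.208 and 0.322. These values hold for the brightest probe set of each gene only, and Snrpe alone had no other. The second Snrpg probe set was called lower with the Oct4 morpholino at 44 h (-0.78). Of the 3 other Srsf2 probe sets 1 was called lower with the Sall4 morpholino at 44 h. Other probe sets reached 2.05 for Prpf19 (Nanog, 20 h) and 2.21 for Lsm8 (Nanog, 44 h), without being called. Snrpe had 5008, 4533 and 4762 with the Oct4 morpholino at 44 h, against 5158, 4925 and 4780 with the control. These groups overlapped, unlike those of Snrpf, which encodes another protein of the same ring.

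The Sall4 morpholino at 44 h left 1 member lower than the control and 0 higher (all genes called 3.97%, lower 2.13%, higher 1.83%). This was Srsf5, at -0.67 ± 0.17 (SE, adjusted p = 0.0186). It had 1756, 1184 and 1317 with the Sall4 morpholino, against 2021, 2596 and 2149 with the control, and 2463, 2530 and 2361 in uninjected embryos. The call was lost without replicate 2 of the control group (adjusted p = 0.123), without replicate 2 of the Sall4 group (0.15), with quantile normalization (0.0791) and in a fit of that experiment alone (0.231). Counts of called members became 2 without replicate 1 of the control group, 0 without its replicate 2, 0 without replicate 2 of the Sall4 group and 6 without its replicate 3. The median change of members was -0.25, against -0.02 for all genes. These counts take the brightest probe set of each gene. That of Sf3b2 changed by -0.92 (adjusted p = 0.173), while 3 of its 6 other probe sets were called lower. Of the 3 other probe sets of Srsf2 1 was called lower, and of the 3 others of Srsf6 2.

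The Oct4 and Sall4 arrays can be compared directly. Of the 61 members 3 were lower and 2 higher with the Oct4 than with the Sall4 morpholino (all genes called 7.07%, lower 3.36%, higher 3.71%). Snrpf was lower by 0.92 ± 0.14 on the log2 scale (SE, adjusted p = 4.4e-05), 1.89-fold, under each setting and without each array. Lsm3 was lower by 1.61 ± 0.36 (SE, adjusted p = 0.00473, and 0.0594 without replicate 1 of the Oct4 group). The brightest Srsf6 probe set gave -0.85 (adjusted p = 0.0386) and was not called without any one of the 6 arrays, while its 3 other probe sets gave 1.01, 2.48 and 2.83. Prpf38a, a protein of the assembling spliceosome, had 1046, 1643 and 1462 with the Oct4 morpholino, against 615, 396 and 1037 with the Sall4 morpholino (1.08 ± 0.29, SE, adjusted p = 0.0166). Snrnp70, the U1-70K protein, had 2193, 3179 and 2282 with the Oct4 morpholino, against 1623, 1258 and 2146 with the Sall4 morpholino (0.61 ± 0.19, SE, adjusted p = 0.0388). In both the Oct4 arrays lay above the Sall4 arrays by narrow gaps, and with the mean of all probe sets Snrnp70 stood at -0.15 (adjusted p = 0.826). The count of 5 was 3 without replicate 1 or 2 of the Oct4 group and 2 without replicate 1 or 2 of the Sall4 group.

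The Nanog morpholino at 44 h left 2 members lower and 1 higher than its control (all genes called 5.01%, lower 1.56%, higher 3.44%), with a median change of 0.02 for members and 0.05 for all genes. Snrpb had 400, 978 and 1041 with the Nanog morpholino, against 2097, 2154 and 1923 with the control (-1.45 ± 0.42, SE, adjusted p = 0.039). U2af1l4 had 150, 158 and 405 with the Nanog morpholino, against 782, 389 and 942 with the control (-1.56 ± 0.45, SE, adjusted p = 0.0392), with 1 array of each group overlapping. Prpf38b had 7180, 6250 and 6659 with the Nanog morpholino, against 4646, 3452 and 4068 with the control (0.73 ± 0.21, SE, adjusted p = 0.038). The embryo and oocyte sum lay wholly above its control, at 27914 to 32534 with the Nanog morpholino, against 23187 to 25854, and the granulosa and cumulus sum was 2782 to 3730, against 1862 to 3297. The part of these sums in the result was not tested. The 3 calls were close to the threshold, and with a pseudocount of 1 all were lost (adjusted p = 0.07, 0.0648 and 0.0696). With the mean of all probe sets Prpf38b had an adjusted p of 0.943. Against uninjected embryos their adjusted p-values were 0.185, 0.0895 and 0.0628. The count of 3 was 1 without replicate 1 or 2 of the control group, 0 without its replicate 3, 0 without replicate 1 of the Nanog group and 1 without its replicate 2. It takes the brightest probe set of each gene. Among members not called by that probe set, 2 of the 6 others of Sf3b2 and 1 of the 3 others of Sf3b1 were called lower. The other probe set of Sf3a2 (1.77) and 1 of the 2 others of Prpf38a were called higher.

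The difference between the Nanog and the Oct4 effect at 44 h, each against its own control, was tested directly and called 4 members, all with the Nanog effect above the Oct4 effect (all genes called 2.13%, higher 1.6%, lower 0.523%). They were Lsm3 at 2.11 ± 0.51, Snrpf at 1.22 ± 0.19, Srsf5 at 1.21 ± 0.24 and Srsf10 at 0.91 ± 0.19 (log2, SE, adjusted p = 0.0204, 0.000299, 0.00477 and 0.00634). In the Nanog experiment Snrpf had 5846, 4939 and 5791 with the Nanog morpholino, against 5583, 5116 and 5211 with the control. Lsm3 had 5617, 5012 and 5790 with the Nanog morpholino, against 5718, 4898 and 5532 with the control. In both genes these groups overlapped, unlike the Oct4 groups. The 2 experiments differ in the scale of their arrays, and the part of that scale in the differences was not tested. The Lsm3 difference was not called without replicate 1 of the Oct4 experiment's control group (adjusted p = 0.0599) or replicate 2 of the Nanog experiment's control group (0.0535). The same test of the Nanog against the Sall4 effect called 0 members in limma, with 9 under 0.05 before adjustment (all genes called 0.743%). The Nanog effect at 44 h against that at 20 h also gave 0 calls in limma, with 3 members under 0.05 before adjustment (all genes called 0.827%).

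**Figure D3:**
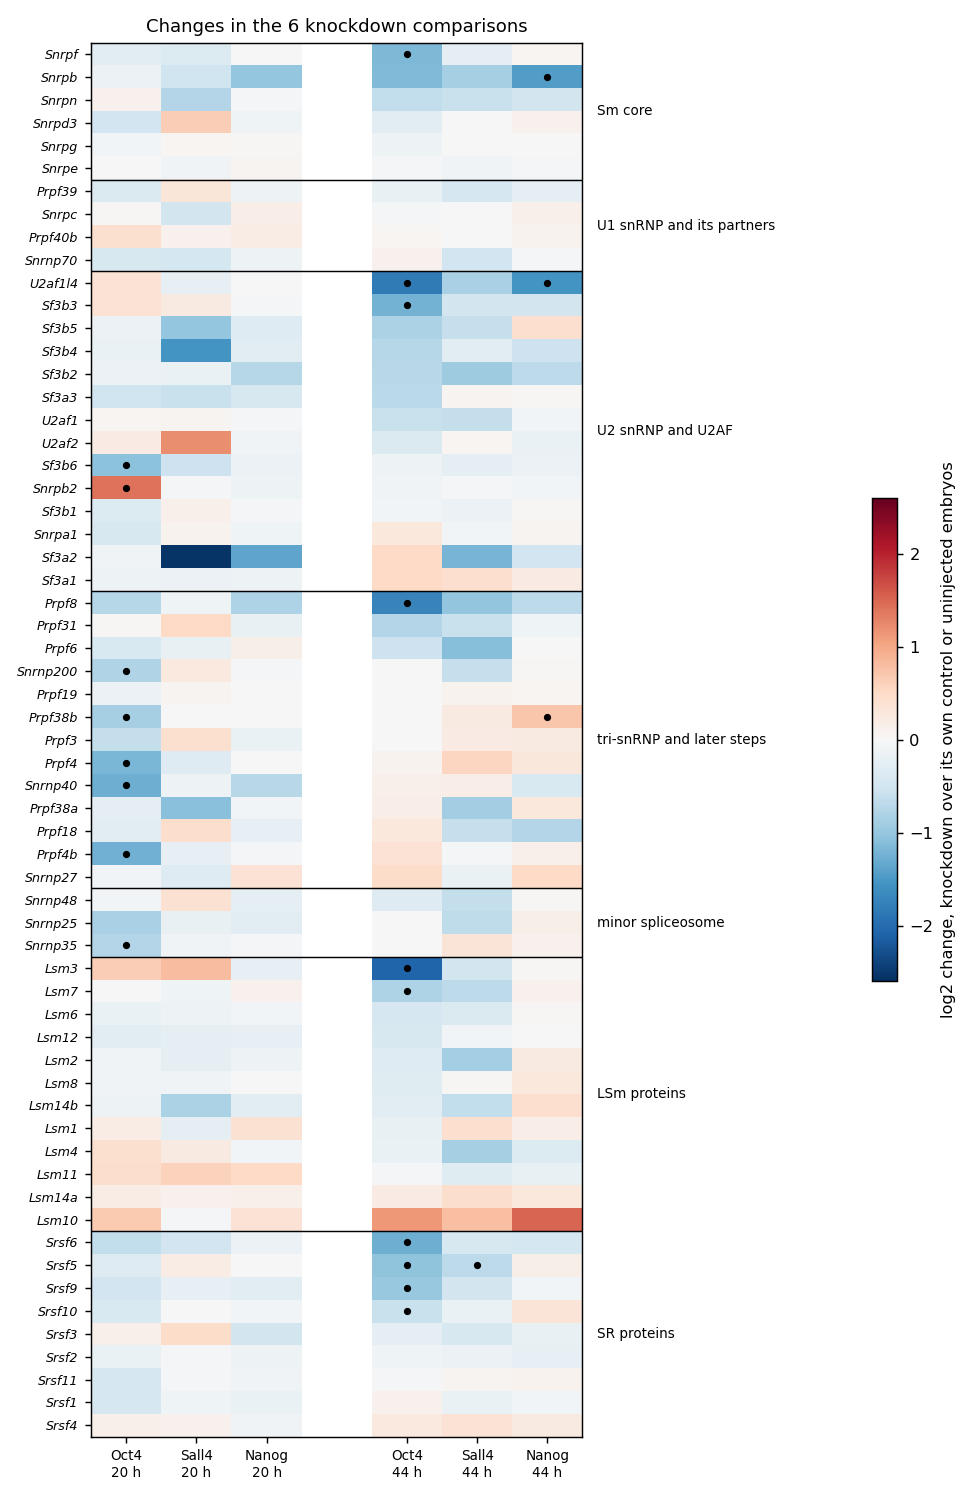
Log2 change of the 61 tested members in the 6 knockdown comparisons, by role (red higher, blue lower, dots adjusted p under 0.05); at 20 h the Oct4 and Sall4 morpholinos were set against uninjected embryos and all others against the control morpholino. The dots gather in the 2 Oct4 columns, with 8 at 20 h and 10 at 44 h.

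At 20 h embryos given the Oct4 morpholino were set against uninjected embryos. Of the 61 members 7 were lower and 1 higher, 13.1% of the 61, against 2.02% of all genes called, 1.84% lower and 0.174% higher. The median change was -0.16 for members and -0.02 for all genes. No control morpholino was run in this experiment at 20 h, so the effect of the Oct4 oligomer and that of injection cannot be told apart here.

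The 1 member that rose was Snrpb2, the U2 B″ protein that binds a stem loop of U2 RNA. It had 1698, 1707 and 1994 with the Oct4 morpholino, against 709, 568 and 738 in uninjected embryos (1.41 ± 0.16, SE, adjusted p = 3.1e-06), 2.65-fold higher. In the Sall4 experiment at 20 h it had 738, 771 and 823 with the Sall4 morpholino, against 726, 1012 and 691 in uninjected embryos. Among these 4 groups only the Oct4 group stood apart. A second probe set had 1972, 2379 and 2136 with the Oct4 morpholino, against 1132, 1187 and 1084 in uninjected embryos, a change of 0.92 with an adjusted p of 0.157 over all probe sets. The third read 8.11 to 19.4 in these groups and changed by 0.09. The call was kept without each array and was lost in a fit of that experiment alone (adjusted p = 0.0681).

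Of the 7 that fell, 5 belong to the tri-snRNP and later steps, of 13 tested. Snrnp40, a U5 protein, had 433, 219 and 126 with the Oct4 morpholino, against 841, 373 and 620 in uninjected embryos (-1.27 ± 0.32, SE, adjusted p = 0.0288), with overlapping groups. Prpf4b, a kinase of the assembling spliceosome, had 488, 480 and 239 with the Oct4 morpholino, against 958, 865 and 991 in uninjected embryos (-1.25 ± 0.25, SE, adjusted p = 0.00342). Prpf4, a U4/U6 protein, had 205, 166 and 187 with the Oct4 morpholino, against 464, 365 and 507 in uninjected embryos (-1.18 ± 0.28, SE, adjusted p = 0.0193). In the last 2 the groups were well apart. Prpf38b had 751, 621 and 387 with the Oct4 morpholino, against 1061, 869 and 1229 in uninjected embryos (-0.86 ± 0.21, SE, adjusted p = 0.0224). Snrnp200, the helicase that unwinds U4 from U6, fell by 0.79 ± 0.21 (SE, adjusted p = 0.0424), while its other probe set changed by 0.43.
The remaining 2 were Sf3b6, which contacts the branch point, with 273, 245 and 185 with the Oct4 morpholino, against 572, 444 and 489 in uninjected embryos (-1.06 ± 0.29, SE, adjusted p = 0.0478), and Snrnp35 (-0.75 ± 0.16, SE, adjusted p = 0.00597). Snrnp35, of the minor spliceosome, had 2980, 1860 and 2165 with the Oct4 morpholino, against 4228, 3506 and 3911 in uninjected embryos. These calls rest on the spread of all 42 arrays. In a fit of that experiment alone 0 members were called, with quantile normalization 3 and with the mean of all probe sets 3. Without replicate 2 or replicate 3 of the Oct4 group, or without replicate 1 of the uninjected group, 2 members were called, and without replicate 3 of the uninjected group 3.

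**Figure D4:**
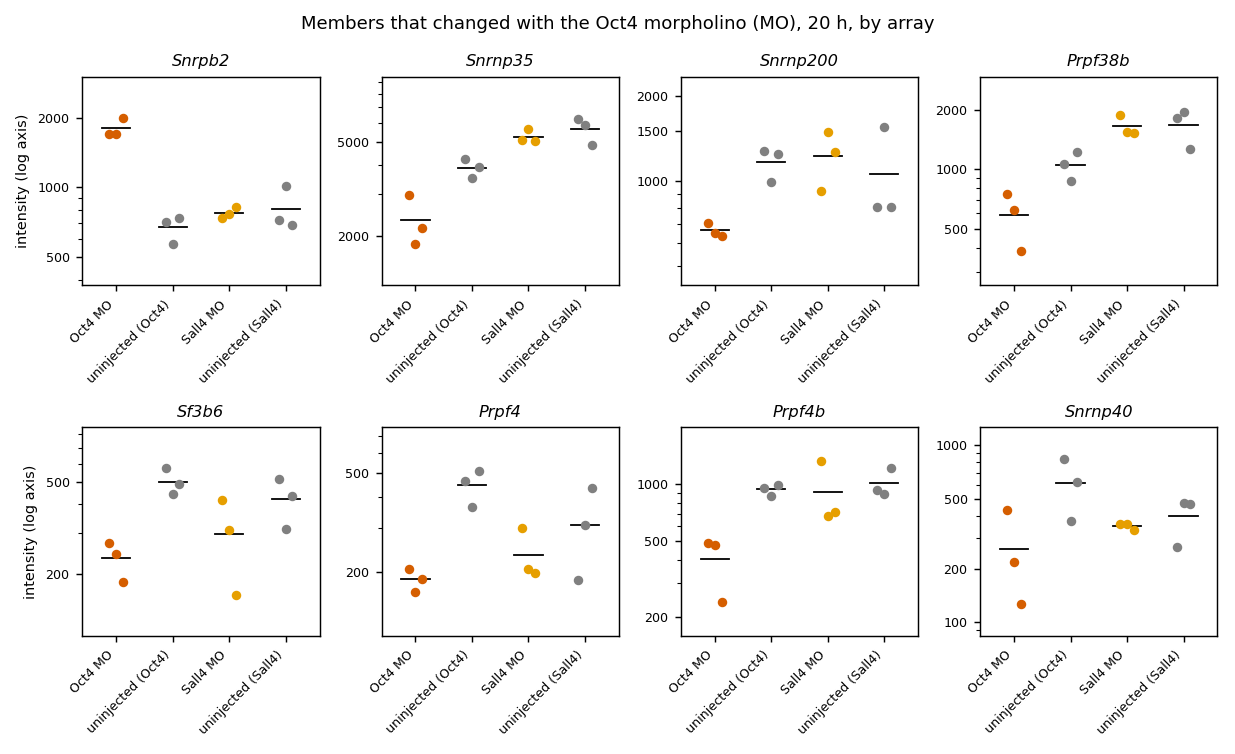
Intensity (log axis) on each array at 20 h for the 8 members that changed with the Oct4 morpholino; points are arrays and bars are means of 3, with the Sall4 experiment and its own uninjected embryos on the right of each panel. Snrpb2 is high in the 3 Oct4 arrays only, and Snrnp40 has overlapping Oct4 and uninjected points.

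No member called at 20 h with the Oct4 morpholino was called with it at 44 h. The share of all genes called at both times was not counted, so this describes the members only. Snrpb2 stood at -0.10 at 44 h. Of the members lower at 44 h, Prpf8 stood at -0.75, Srsf6 at -0.65, Srsf9 at -0.50, Srsf10 at -0.40 and Snrpf at -0.30 at 20 h, none past the test. The difference between the times was not tested, because the embryos they were set against differ.

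With the Sall4 morpholino at 20 h limma called 0 members, with 12 under 0.05 before adjustment (all genes called 0.233%). The largest change was that of Sf3a2, at -2.55 (adjusted p = 0.136), with 27.6, 19.7 and 13.9 with the Sall4 morpholino, against 16.8, 768 and 348 in uninjected embryos. Replicate 1 of its uninjected group was as dim as the injected arrays. U2af2, the U2 auxiliary factor subunit that binds the polypyrimidine tract, was at 1.20 (adjusted p = 0.0694). Both were chosen for mention after their values were seen. Without replicate 1 of the uninjected group 3 members were called, and 1 without its replicate 3. The count was 1 without replicate 1 of the Sall4 group and 2 without its replicate 2. With the Nanog morpholino at 20 h limma called 0 members, with 2 under 0.05 before adjustment (all genes called 0.62%).

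Over the 6 knockdown comparisons 42 of the 61 members were called in none, 16 in 1 and 3 in 2. Single comparisons called from 0.233% (Sall4, 20 h) to 11.6% (Oct4, 44 h) of all genes. The count over comparisons was not made for all genes, so it describes the members only. The 3 members called in 2 comparisons were Prpf38b, Srsf5 and U2af1l4. At 44 h the Oct4 and Sall4 comparisons share their control arrays, so the Srsf5 calls are not independent. U2af1l4 was lower in both the Oct4 and the Nanog experiments at 44 h, on separate arrays. Prpf38b was lower with the Oct4 morpholino at 20 h and higher with the Nanog morpholino at 44 h.

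The control morpholino was also set against no injection. In the 44 h Oct4 and Sall4 experiment 1 member was higher than in uninjected embryos (all genes called 0.0969%, higher 0.0646%, lower 0.0323%). This was Snrnp48, a U11/U12 protein of the minor spliceosome, with 2449, 2110 and 2893 with the control morpholino, against 1291, 816 and 871 in uninjected embryos (1.33 ± 0.19, SE, adjusted p = 0.000819). Its level with the Oct4 morpholino was 1710, 2455 and 1783 and with the Sall4 morpholino 1502, 1800 and 1496, so all injected arrays of this experiment lay above the uninjected ones. The share of all genes with such a separation was not counted. In the Nanog experiment at 44 h the change of Snrnp48 was 0.26. At 20 h it changed by -0.06 with the Oct4 and 0.40 with the Sall4 morpholino over uninjected embryos, neither called. Its 3 other probe sets changed by 1.29, 0.87 and -1.04 in the first experiment. The call was lost with the mean of all probe sets (adjusted p = 0.918) and in a fit of that experiment alone (0.415). In the Nanog experiment limma called 0 members at 20 h, with 1 under 0.05 before adjustment (all genes called 0.0905%), and 0 at 44 h, with 2 (all genes called 0.349%). At 44 h 1 was called without replicate 3 of the uninjected group.

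**Figure D5:**
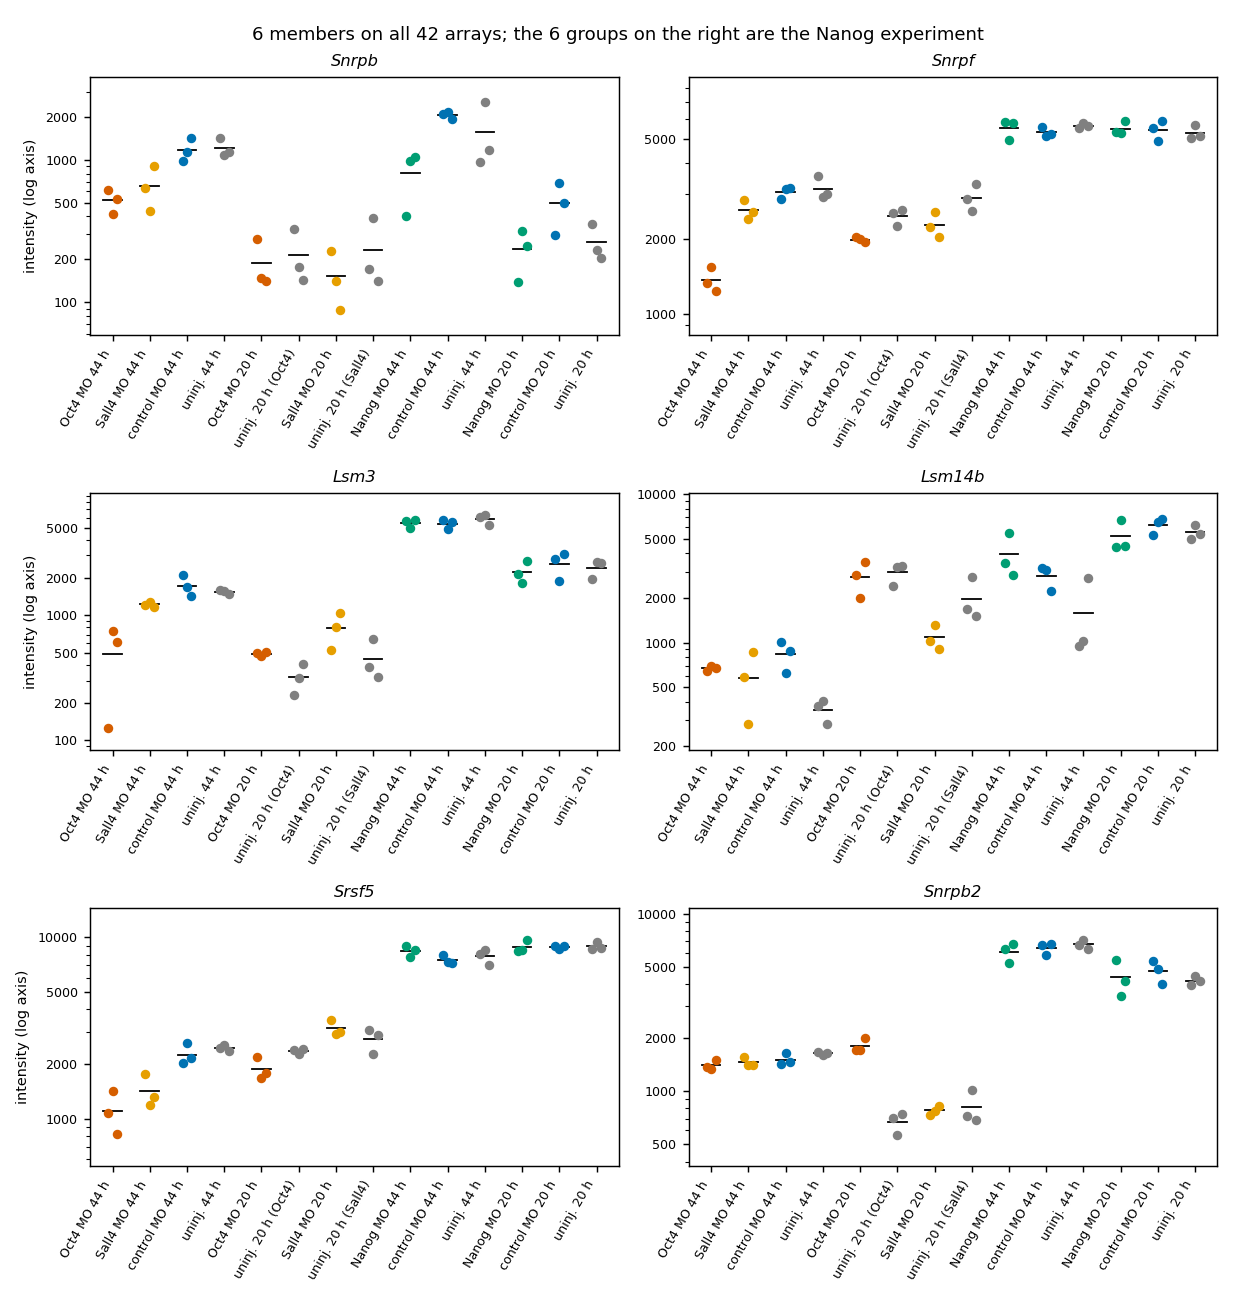
Intensity (log axis) of Snrpb, Snrpf, Lsm3, Lsm14b, Srsf5 and Snrpb2 on all 42 arrays; points are arrays, bars are means of 3, and the 6 groups on the right are the Nanog experiment. Snrpf is lowest in the Oct4 group at 44 h and lies in 1 band across the Nanog experiment.

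The level of each of these genes can be followed over the groups. Snrpf lay between 4899 and 5875 across the 6 groups of the Nanog experiment. The knockdown changes of Snrpb over the control at 44 h were -1.15 (Oct4), -0.87 (Sall4) and -1.45 (Nanog) on the log2 scale, of which the Nanog change alone passed the test. For Lsm14b at 44 h, the control morpholino stood at 1.20 over uninjected embryos in the Oct4 and Sall4 experiment and at 0.99 in the Nanog experiment (log2, adjusted p = 0.356 and 0.224).

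Other splicing genes were read in the same fits. Of 125 genes in 6 lists (hnRNP proteins, helicases and the NTC, SR kinases and SR-related proteins, the exon junction complex, snRNP assembly, and other snRNP or complex A or B factors) 110 were tested. With the Oct4 morpholino at 44 h 11 were lower (10.0%, against 6.18% of all genes) and 6 higher (5.45%, against 5.38%), with a median change of -0.13, against 0.02 for all genes. Lower were Wdr77, the partner of Prmt5 in the enzyme that methylates Sm proteins, at -3.20 ± 0.45 (SE, adjusted p = 1e-05), the hnRNP genes Hnrnpa0 (-2.05) and Hnrnpl (-1.87), Rbm39 (-1.51), Bcas2 of the NTC (-1.45), Rbm5 (-1.12) and the SR kinase Clk1 (-1.07). Higher were Pnn (1.09), Cwc22 (1.08) and Tgs1, which matures the cap of snRNAs (1.07). With the Sall4 morpholino at 44 h 8 were lower (7.27%, against 2.13% of all genes) and 2 higher (1.82%, against 1.83%). The lower were Ddx23 (-2.40), Ptbp3 (-2.01), Bcas2 (-1.19), Clk1 (-1.16), Hnrnph3 (-0.89), Cdc5l (-0.68), Hnrnph1 (-0.57) and Hnrnpul2 (-0.50), and the higher Tgs1 (1.10) and Ptbp2 (1.02). These 2 comparisons share their control arrays. With the Nanog morpholino at 44 h Hnrnpa0 was lower (-0.99) and Ptbp2 (0.96) and Tgs1 (0.61) were higher, 0.909% and 1.82% of the 110, against 1.56% and 3.44% of all genes.

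At 20 h the Oct4 morpholino left 3 of these genes lower (2.73%, against 1.84% of all genes): Gemin5, which recognises snRNAs for Sm ring assembly (-2.02), Sart1 of the tri-snRNP (-1.05) and U2surp (-0.94). The Sall4 morpholino left Hnrnpk lower (-0.57), where 0.233% of all genes were called in either direction, and the Nanog morpholino called 0 in limma, with 6 under 0.05 before adjustment (all genes called 0.62%). Between the Oct4 and Sall4 morpholinos at 44 h 8 were higher (7.27%, against 3.71% of all genes) and 6 lower (5.45%, against 3.36%) with Oct4. Wdr77 (-2.95), Hnrnpa0 (-2.05), Rbm5 (-1.58) and Rbm39 (-1.13) were lower, and Ddx23 (2.21), Hnrnph3 (1.01) and Ddx46 (0.95) higher.

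Over time 10 of the 110 rose in uninjected embryos of the Nanog experiment, 9.09% against 9.28% of all genes, which is the background share, and 4 fell, 3.64% against 16.3%. Ptbp2, a splicing repressor, fell by 2.94 ± 0.29 on the log2 scale (SE, adjusted p = 4.2e-09) and the SR kinase Srpk2 by 1.77. Cwc27 rose by 2.31, the U5 GTPase Eftud2 by 2.14, the U5 helicase Ddx23 by 1.81, Prmt5 by 1.20 and Gemin2 of the SMN complex by 1.07. In uninjected embryos of the Oct4 and Sall4 experiments 40 rose (36.4%, against 20.4% of all genes) and 15 fell (13.6%, against 25% of all genes), with a median of 0.22, against -0.06 for all genes. There Ptbp2 fell by 4.04, while Eftud2 rose by 3.43, Ddx23 by 2.89, Prmt5 by 2.81, Smn1 by 2.59 and Gemin2 by 2.39.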

How the data were processed

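Per the labels' protocols, RNA of whole embryos was isolated with a PicoPure kit, amplified (NuGEN), biotin-labelled and put on Affymetrix arrays. The authors deposited 1 linear intensity per probe set for 45101 probe sets on 42 arrays. The sources used here do not say how these intensity values were summarised or normalized. They run from 0.42 to 133546, and 2.43% are exactly 1.

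Samples were grouped from their titles into 14 groups of 3. Replicate correlations were 0.896 to 0.964, so no array copied another. The labels call the replicates biological without saying whether the embryos were separate collections, so p-values measure only the spread between arrays. Precision is limited by there being 3 arrays per group.

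Probe sets with 1 symbol in the platform annotation (34945) were named, and 932 with several symbols were left out. Each gene took its probe set with the highest mean log2(intensity + 16). Counts of called members rest on that probe set, and other probe sets of uncalled members were called in some comparisons. A member had 1 probe set in 22 cases and several in 40. Levels are not compared between genes. Tested genes had a mean log2 in at least 1 group above 6.45, the table median (an intensity of 71.15). The pseudocount of 16 understates the changes of dim genes, and a gene that passed only through the bright Nanog arrays can lie near the floor elsewhere.

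A group-means model was fitted over all 42 arrays (limma 3.58.1, R 4.3.3), two-sided, with Benjamini-Hochberg adjustment. It was tested on simulated data. Members called in a comparison are named, except in some comparisons over time. With the control or the Nanog morpholino over time only some of those called are named. Over time in the Oct4 and Sall4 experiments the larger changes are named. Also named are, per role class, the member with the largest change in uninjected embryos of the Nanog experiment, the 5 members with the smallest changes over the 6 knockdown comparisons, the 3 targets, and up to 10 other splicing genes called per comparison. A few members outside these rules are named beside them. Values of each array are given for up to 5 called members per direction, with a few others. The members and lists were chosen with earlier results of these data known. Alternatives were pseudocounts of 1 and 64, a filter at the 75th percentile or none, quantile normalization, median centring, the mean of all probe sets, the experiment alone, uninjected embryos as the reference, a replicate block, and leaving out each array. With 3 arrays against 3 an exact permutation test could not go below a p of 0.1, so none was run.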

Additional observations from a re-analysis of the deposited data

Results flagged for a closer look

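9 differences between effects passed a direct test. The Nanog effect stood above the Oct4 effect at 44 h, each against its own control, for Lsm3 (difference of log2 changes 2.11, adjusted p = 0.0204), Snrpf (1.22, adjusted p = 0.000299), Srsf5 (1.21, adjusted p = 0.00477) and Srsf10 (0.91, adjusted p = 0.00634), in the limma fit. The knockdown arrays of the Oct4 and Sall4 morpholinos at 44 h differed for Lsm3 (-1.61, adjusted p = 0.00473), Snrpf (-0.92, adjusted p = 4.37e-05), Srsf6 (-0.85, adjusted p = 0.0386), Snrnp70 (0.61, adjusted p = 0.0388) and Prpf38a (1.08, adjusted p = 0.0166), as log2 of Oct4 over Sall4. Snrpf and Lsm3 are in both lists, which share the Oct4 arrays. Of these, the Srsf6 value comes from its brightest probe set, and the 3 others gave 1.01, 2.48 and 2.83 in the same comparison. Groups of 3 arrays were not screened for single outlying arrays.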

How the results depend on the processing

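Calls of members were followed over the settings, at most 25 per comparison by size, including some not named above. Of these 103 calls, 52 were kept under each setting tried and without each array, 61 without each array and 68 under each other setting. With the mean of all probe sets 3 turned round: Srsf6 (Oct4 over Sall4, 1.37, adjusted p = 0.00624), Snrnp70 (same comparison, -0.15, adjusted p = 0.826) and Prpf38b over time in the Oct4 and Sall4 experiments (0.31, adjusted p = 0.209). The cause was not tested. Counts of called members moved beyond 1.5 times as follows. With the arrays of the experiment alone, which leaves fewer arrays, they were 0 (Oct4, 20 h, main 8), 0 (Sall4, 44 h, main 1), 1 (Nanog, 44 h, main 3), 2 (Oct4 over Sall4, main 5) and 0 (control over uninjected, Oct4 and Sall4 experiment, main 1). With the mean of all probe sets they were 3 (Oct4, 20 h), 1 (Nanog, 20 h, main 0), 5 (Sall4, 44 h), 6 (Nanog, 44 h), 0 (control over uninjected, Oct4 and Sall4 experiment) and 1 (Nanog against Sall4 effect, main 0). With quantile normalization they were 3 (Oct4, 20 h), 0 (Sall4, 44 h), 3 (Oct4 over Sall4) and 23 (time, control morpholino, main 13). The Sall4 count at 44 h was 2 with a pseudocount of 64, 3 with the stricter filter and 7 against uninjected embryos, and the Nanog count at 44 h was 0 with a pseudocount of 1 and 2 against uninjected embryos. Without single arrays the counts ranged over 2 to 10 (Oct4, 20 h), 0 to 3 (Sall4, 20 h), 0 to 0 (Nanog, 20 h), 9 to 10 (Oct4, 44 h), 0 to 6 (Sall4, 44 h), 0 to 2 (Nanog, 44 h), 2 to 5 (Oct4 over Sall4), 0 to 1 (control over uninjected, Nanog experiment, 44 h), 14 to 16 (time, uninjected, Nanog experiment), 8 to 13 (time, control morpholino), 6 to 12 (time, Nanog morpholino), 33 to 40 (time, Oct4 and Sall4 experiments), 3 to 5 (Nanog against Oct4 effect) and 0 to 1 (Nanog against Sall4 effect). Arrays of one number did not pair: of 42 same-number pairs 5 correlated above 0.1 in their deviations from the group means (median 0.0183), and with the replicate block the count was 1 for Sall4 at 20 h and 1 for the control over uninjected embryos of the Nanog experiment at 44 h, both 0 without it. Dim probe sets limit the rest.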
